A study of Mus musculus with 63 samples.

Results

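Fgf5, Otx2, Pou3f1, Sox3, Zic2, Zic5 and Grhl2 are genes associated with the formative and primed states of the mouse epiblast, and their transcript levels were followed in RNA-seq of mouse embryonic stem (ES) and extended pluripotent stem (EPS) cells. The 7 genes were taken by symbol from the deposited count tables, which list 47517 gene symbols, and all 7 were found in each of the 22 RNA-seq libraries. The series addresses the transcription factor YY1 in extended pluripotency, and 41 of its 63 samples are of other assays and were not analysed here. All cells are labelled as C57BL/6. ES cells were kept in 2i medium and EPS cells in LCDM medium, on mitomycin C-inactivated fibroblast feeders or on Matrigel, without a statement of which support a library came from. Cell state and medium thus cannot be told apart where undifferentiated EPS and ES cells are compared.

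The libraries form 10 groups. ES and EPS cells without a construct have 3 libraries each, and every other group has 2. EPS shCtrl cells carried a control short hairpin RNA and EPS shYy1 cells were depleted of Yy1 by a hairpin. ES oeCtrl cells carried the overexpression control and ES oeYy1 cells overexpressed Yy1. The same 4 lines were also sampled on day 6 of culture in F4H medium, a name the labels do not explain. The titles of the day 6 control samples name shCtrl and oeCtrl, whereas their genotype is given only as control. The labels do not say whether replicates were separate cultures or clones, so a p-value here speaks of library-to-library variation that may be technical.

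Naive ES cells resemble the epiblast before implantation, and they pass through a formative state, marked by Otx2, Pou3f1 (also called Oct6) and Fgf5, on the way to primed pluripotency and the germ layers. OTX2 works with OCT4 at enhancers of this later state, GRHL2 activates epithelial enhancers in it, and the Zic genes and Sox3 are expressed in the epiblast and then in neural tissue. FGF5 is a secreted growth factor that serves as the classical marker of the epiblast after implantation.

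Gene counts per library ranged from 13672061 to 20782348, and levels are given as CPM, the count per 1000000 gene counts of the library, with no correction for gene length, so levels are not compared between genes. At this depth 3 counts equal 0.144 to 0.219 CPM. In bulk RNA, fewer cells of a type and less RNA per cell cannot be told apart. Yy1 itself was at 70.5 CPM in both EPS shYy1 libraries against 134 in both EPS shCtrl libraries, and at 934 and 941 CPM in ES oeYy1 against 120 and 124 in ES oeCtrl. On day 6 a difference in Yy1 between the hairpin groups was not detected (114 and 110 CPM against 129 and 123, log2 fold change after TMM scaling of library sizes -0.03 ± 0.05 (SE), adjusted p = 0.567), whereas overexpression persisted (331 and 324 against 120 and 126 CPM). The libraries labelled EPS shYy1 on day 6 thus carry no detectable reduction of the Yy1 transcript, and this holds for every day 6 hairpin value below. Summed CPM of 12 fibroblast genes was 2246 to 4072 in ES, 266 to 814 in EPS and at most 51.3 in the undifferentiated lines with a construct. Y-linked genes summed to 6.43 to 7.94 CPM in EPS shCtrl and 159 to 162 CPM in EPS shYy1, and X-linked genes had a median log2 difference of 0.83 between these groups. On day 6 the Y-linked sums were 18.9 to 21.2 CPM in EPS shCtrl and 173 to 179 CPM in EPS shYy1, with an X-linked median of 0.26. An effect of the hairpin and a difference between the lines cannot be told apart at either stage. The overexpression groups differed as well, with Y-linked sums of 114 to 133 CPM in ES oeCtrl and 28.1 to 28.8 CPM in ES oeYy1, and so did ES (65.1 to 77.8 CPM) and EPS (16.6 to 28.3 CPM), with X-linked medians of 0.02 and 0.06. On day 6 the Y-linked sums were 104 to 106 CPM in ES oeCtrl and 67.1 to 73.1 CPM in ES oeYy1. An effect of overexpression and a difference between the ES oeCtrl and ES oeYy1 lines cannot be told apart either. Rose, fell, raised and effect thus describe differences between groups below. The part of fibroblast RNA and of these differences in the results below was not tested. The 2 EPS shCtrl libraries also differed from each other, with Grhl2 at 2.08 and 6.88 CPM, and results that rest on 1 of them are named.

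**Figure D1:**
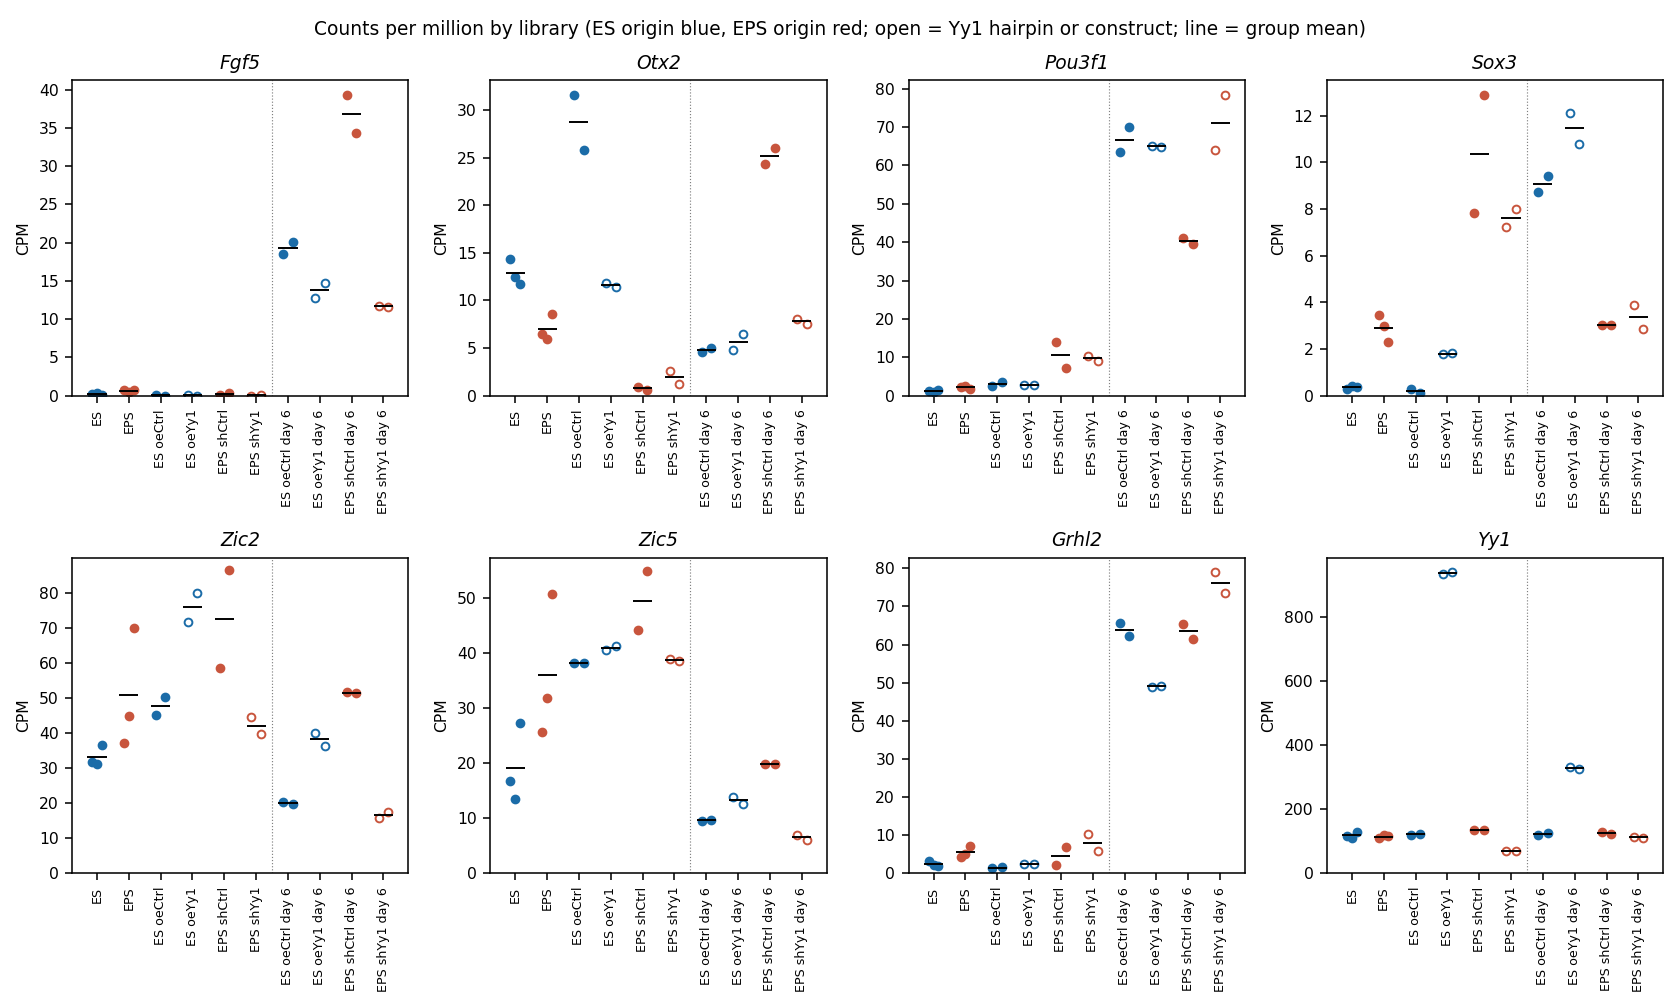
CPM (linear axis) of the 7 genes and of Yy1 in the 22 libraries, 1 panel per gene, with a point for each library (ES origin blue, EPS origin red, open for Yy1 hairpin or overexpression) and a line at the mean of each of the 10 groups. Fgf5 is near the limit of counting in all undifferentiated groups and between 11.6 and 39.2 CPM on day 6, while Zic2 and Zic5 are lowest in day 6 EPS shYy1.

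Fgf5 (GRCm38.p6 chromosome 5, 98254184 to 98277033) was nearly silent before differentiation. It had 4, 7 and 2 counts in ES (0.240, 0.412 and 0.119 CPM) and 13, 9 and 12 counts in EPS (0.700, 0.433 and 0.704 CPM). The undifferentiated lines with a construct had 0 to 5 counts per library, which is too few for a fold change among them. EPS lay above ES without overlap, but the difference did not pass the test (log2 fold change 1.27 ± 0.64, adjusted p = 0.146). On day 6 Fgf5 stood at 39.2 and 34.4 CPM in EPS shCtrl, 11.8 and 11.6 in EPS shYy1, 18.5 and 20.1 in ES oeCtrl, and 12.8 and 14.8 in ES oeYy1. These 4 groups did not overlap, with EPS shCtrl highest and EPS shYy1 lowest. The day 6 level over the undifferentiated level was 201.4-fold in EPS shCtrl (95% exact counting interval 92.3 to 549.7, from 1433 and 6 counts). In ES oeYy1 it was 203.2-fold (55.9 to 1684, from 396 and 2 counts). The other lines had 1 count before differentiation, which leaves their ratios of 354.3 (EPS shYy1, 63.2 to 14030) and 573.4 (ES oeCtrl, 102.6 to 22680) wide, and these intervals cover counting error only. On day 6 Fgf5 fell by 1.52 ± 0.10 on the log2 scale (SE, adjusted p = 2.70e-20) in the libraries labelled EPS shYy1 and by 0.52 ± 0.11 (adjusted p = 8.70e-05) with Yy1 overexpression.

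RefSeq (GRCm38.p6) sequences upstream of the start were at hand for 3 of the 7 genes, Fgf5, Otx2 and Zic5, and not for Pou3f1, Sox3, Zic2 and Grhl2. The 250 bases before the start are shown for those 3 because the genes behaved differently on day 6 (Fgf5 rose in every line, Otx2 by line of origin, and Zic5 fell), with CG dinucleotides in capitals. The Fgf5 window (chr5:98253934-98254183, + strand) holds 24 CG dinucleotides and 70.8% G and C, against medians of 6 and 52.4% over all promoter entries. The upstream-most of 4 Otx2 windows (chr14:48667645-48667894, - strand) holds 6 and 42%, and the Zic5 window (chr14:122465659-122465908, - strand) holds 11 and 62.4%. The other Otx2 windows hold 8, 14 and 9 CG dinucleotides and 49.2%, 48.4% and 53.6% G and C.
Fgf5: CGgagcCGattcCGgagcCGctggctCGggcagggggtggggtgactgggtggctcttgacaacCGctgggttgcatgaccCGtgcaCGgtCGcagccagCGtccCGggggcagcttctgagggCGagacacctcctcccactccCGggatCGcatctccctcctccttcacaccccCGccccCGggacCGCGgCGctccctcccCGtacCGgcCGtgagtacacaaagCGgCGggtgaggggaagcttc
Otx2: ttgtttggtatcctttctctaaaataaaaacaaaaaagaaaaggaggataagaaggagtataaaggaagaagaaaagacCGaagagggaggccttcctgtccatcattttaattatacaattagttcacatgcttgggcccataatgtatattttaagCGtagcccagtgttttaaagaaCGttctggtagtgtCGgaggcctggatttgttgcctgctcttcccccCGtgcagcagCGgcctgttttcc
Zic5: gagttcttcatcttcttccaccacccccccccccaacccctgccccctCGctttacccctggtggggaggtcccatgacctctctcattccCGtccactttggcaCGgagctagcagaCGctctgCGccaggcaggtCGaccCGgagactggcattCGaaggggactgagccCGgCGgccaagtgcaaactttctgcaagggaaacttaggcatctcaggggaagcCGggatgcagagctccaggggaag
All 6 windows of these genes, the other Otx2 starts included, were searched on both strands for 3 motifs. The YY1 core CCATNTT had no match in them and is found in 12.4% of all promoter windows of this length. The bicoid motif TAATCC, which OTX2-type homeodomains recognise, had 1 match, in the Otx2 window chr14:48665110-48665359, 211 bases before the start, and occurs in 6.25% of all windows. The octamer ATGCAAAT, which POU factors recognise, had none and occurs in 1.60%. A match describes letters only, and the absence of one in 250 bases says nothing about binding elsewhere.

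Otx2 (chromosome 14, 48656781 to 48667644), the homeodomain factor that drives exit from the naive state, varied in opposite directions by line. It was at 14.3, 12.4 and 11.8 CPM in ES and 6.46, 5.92 and 8.62 CPM in EPS. With constructs it was at 31.6 and 25.8 CPM in ES oeCtrl, 11.8 and 11.4 in ES oeYy1, 0.945 and 0.647 in EPS shCtrl, and 2.63 and 1.20 in EPS shYy1. ES libraries were thus all above EPS libraries, and the control construct lines lay further apart than the lines without constructs. EPS was lower than ES by a log2 fold change of -0.82 ± 0.20 (adjusted p = 0.00464), and EPS shCtrl lower than ES oeCtrl by -5.18 ± 0.32 (adjusted p = 2.90e-09). The control construct lines also differed from the cells without a construct: -3.26 ± 0.31 for EPS shCtrl against EPS (adjusted p = 2.53e-07) and 1.10 ± 0.21 for ES oeCtrl against ES (adjusted p = 0.000323).

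Before differentiation Otx2 differed in opposite directions with the hairpin and with overexpression. With the hairpin it rose by 1.18 ± 0.38 (log2, adjusted p = 0.0283), from a low level. That call ended when only the groups compared were fitted (adjusted p = 0.131), without EPS shCtrl replicate 2 (0.188) and without EPS shYy1 replicate 1 (log2 fold change 0.53, adjusted p = 0.422). With overexpression it fell by 1.30 ± 0.24 (adjusted p = 0.000478), and the libraries of the 2 groups did not overlap.

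On day 6 Otx2 was at 24.3 and 26.0 CPM in EPS shCtrl, 8.05 and 7.56 in EPS shYy1, 4.57 and 5.01 in ES oeCtrl, and 4.81 and 6.47 in ES oeYy1. EPS shCtrl stood apart above the other 3 groups, which lay at or under 8.05 CPM. In the EPS lines Otx2 rose from the undifferentiated state, by 4.84 ± 0.26 in shCtrl (adjusted p = 4.22e-13) and 2.11 ± 0.25 in shYy1 (adjusted p = 1.41e-07). In the ES lines it fell by 2.58 ± 0.19 in oeCtrl (adjusted p = 1.09e-10) and fell by 1.11 ± 0.21 in oeYy1 (adjusted p = 6.04e-05). The response of EPS shCtrl exceeded that of ES oeCtrl by 7.42 ± 0.33 on the log2 scale (interaction term, adjusted p = 2.96e-13). The hairpin effect also depended on stage: on day 6 Otx2 fell by 1.55 ± 0.12 in the libraries labelled EPS shYy1 (adjusted p = 7.45e-17), and the difference between stages was -2.72 ± 0.41 (adjusted p = 2.03e-05). Day 6 overexpression gave 0.20 ± 0.18 (adjusted p = 0.393), and the sign of that value changed without ES oeYy1 day 6 replicate 2 (-0.030).

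**Figure D2:**
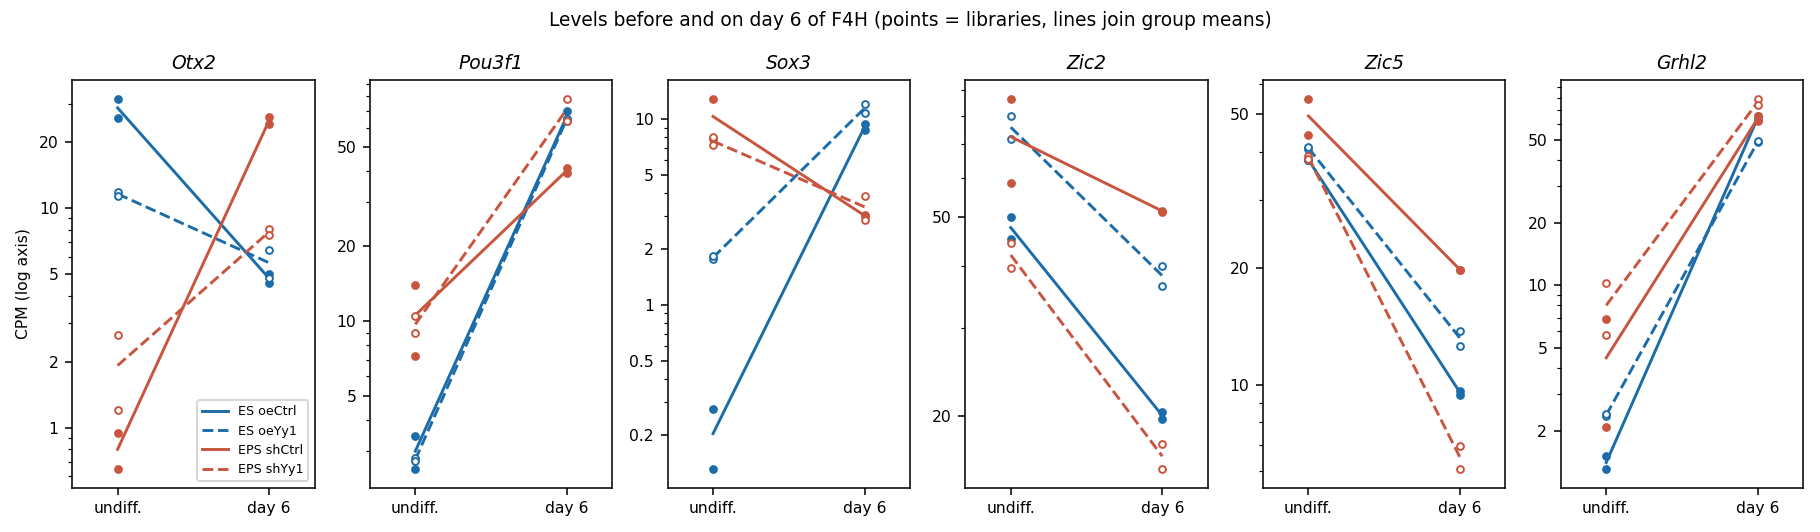
CPM on a log axis of 6 of the genes before (undiff.) and on day 6 of F4H culture, with a point for each library and lines joining the means of the 4 lines (ES blue, EPS red, Yy1 manipulation dashed). Otx2 and Sox3 cross between ES and EPS lines, Pou3f1 and Grhl2 rise in all 4 lines, and Zic2 and Zic5 fall in all 4.

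Pou3f1 (chromosome 4, 124657646 to 124660655), a POU factor of the epiblast and of the early nervous system, rose in every line on day 6. It was at 1.26, 1.06 and 1.49 CPM in ES and 2.21, 2.45 and 1.82 CPM in EPS. The construct lines had 2.54 and 3.46 CPM (ES oeCtrl), 2.81 and 2.75 (ES oeYy1), 13.9 and 7.23 (EPS shCtrl), and 10.5 and 8.97 (EPS shYy1). On day 6 it was at 63.5 and 69.9 CPM in ES oeCtrl, 65.1 and 64.9 in ES oeYy1, 41.2 and 39.5 in EPS shCtrl, and 64.0 and 78.3 in EPS shYy1. All day 6 libraries were above all undifferentiated ones, with EPS shCtrl lowest among the former and the EPS construct lines highest among the latter. The rise was 4.47 ± 0.21 in ES oeCtrl (adjusted p = 9.88e-13) and 1.81 ± 0.17 in EPS shCtrl (adjusted p = 2.94e-08), a difference of -2.66 ± 0.28 (interaction, adjusted p = 5.46e-07). EPS exceeded ES by 0.84 ± 0.29 (adjusted p = 0.0377), a call that ended with only these 2 groups fitted (0.0523) and without ES replicate 1 (0.0861), ES replicate 2 (0.117), EPS replicate 1 (0.0904) or EPS replicate 2 (0.129).

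Neither manipulation changed Pou3f1 detectably before differentiation: the hairpin gave -0.17 ± 0.28 (adjusted p = 0.684) and overexpression -0.12 ± 0.33 (adjusted p = 0.819). On day 6 it was higher in the libraries labelled EPS shYy1 than in EPS shCtrl by 0.95 ± 0.07 (adjusted p = 1.28e-15), and the stage difference was 1.12 ± 0.25 (adjusted p = 0.00144). Day 6 overexpression gave -0.08 ± 0.07 (adjusted p = 0.416). Pou3f1 was also higher in the control construct lines than in cells without a construct. The difference was 2.13 ± 0.27 in EPS shCtrl against EPS (adjusted p = 5.53e-06) and 1.19 ± 0.32 in ES oeCtrl against ES (adjusted p = 0.00489). The latter call was lost without ES oeCtrl replicate 2, where the value was 0.93.

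Sox3 (X chromosome, 60891366 to 60893430), a SOXB1 factor of the epiblast and neural progenitors, had the largest log2 difference between EPS and ES of the 7 genes. ES libraries had 0.300, 0.412 and 0.358 CPM and EPS libraries 3.44, 2.98 and 2.29 CPM. With constructs it was at 0.275 and 0.131 CPM in ES oeCtrl, 1.77 and 1.83 in ES oeYy1, 7.81 and 12.9 in EPS shCtrl, and 7.24 and 8.01 in EPS shYy1. Every EPS library, with or without a construct, was above every ES library. The difference was 3.07 ± 0.35 without constructs (adjusted p = 6.33e-06) and 5.62 ± 0.46 between the control construct lines (adjusted p = 7.22e-08). Sox3 was higher in ES oeYy1 than in ES oeCtrl by 3.11 ± 0.53 (adjusted p = 0.000269), and by 2.69 or 3.68 with 1 of the 2 ES oeCtrl libraries left out, which were at or near the floor of 3 counts.

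The hairpin left Sox3 at -0.51 ± 0.29 (adjusted p = 0.206), and without EPS shCtrl replicate 1 the value was -0.87 with an adjusted p of 0.0394. X-linked genes as a whole were higher in EPS shYy1 (351 of 607 called higher, 15 lower), and Sox3 lay at the 5.6th percentile of their changes. On day 6 Sox3 was at 8.73 and 9.43 CPM in ES oeCtrl, 12.1 and 10.8 in ES oeYy1, 3.03 and 3.02 in EPS shCtrl, and 3.87 and 2.87 in EPS shYy1. The order of ES and EPS lines had thus turned round. Sox3 rose by 5.45 ± 0.41 in ES oeCtrl (adjusted p = 1.03e-10) and fell by 1.92 ± 0.24 in EPS shCtrl (adjusted p = 3.79e-07), an interaction of -7.37 ± 0.48 (adjusted p = 1.09e-10). It rose by 2.60 ± 0.27 in ES oeYy1 and fell by 1.11 ± 0.25 in EPS shYy1 (adjusted p = 0.000419). Neither manipulation changed it detectably on day 6, with 0.31 ± 0.21 for the hairpin (adjusted p = 0.213) and 0.30 ± 0.15 for overexpression (adjusted p = 0.114), and the overexpression effect was smaller than before differentiation by 2.85 ± 0.60 (adjusted p = 0.000743).

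Zic2 (chromosome 14, 122475384 to 122480328) and Zic5 (chromosome 14, 122459160 to 122465658) encode zinc finger factors of the epiblast and neural plate and are neighbours, with 9725 bases between them. Zic2 was at 31.7, 31.2 and 36.6 CPM in ES, 37.2, 44.9 and 70.0 in EPS, 45.2 and 50.2 in ES oeCtrl, 71.7 and 79.9 in ES oeYy1, 58.6 and 86.4 in EPS shCtrl, and 44.5 and 39.6 in EPS shYy1. Zic5 was at 16.7, 13.4 and 27.2 CPM in ES, 25.6, 31.9 and 50.6 in EPS, 38.1 in both ES oeCtrl libraries, 40.6 and 41.2 in ES oeYy1, 44.1 and 54.8 in EPS shCtrl, and 38.9 and 38.4 in EPS shYy1. All EPS libraries were above all ES libraries in Zic2, and the ranges overlapped in Zic5. EPS exceeded ES by 0.66 ± 0.18 in Zic2 (adjusted p = 0.0103) and by 0.97 ± 0.22 in Zic5 (adjusted p = 0.00439).

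Zic2 differed in opposite directions with the hairpin and with overexpression. It fell by 0.86 ± 0.22 with the hairpin (adjusted p = 0.00777, but 0.155 without EPS shCtrl replicate 2 and 0.0738 without EPS shYy1 replicate 2). It rose by 0.66 ± 0.22 with overexpression (adjusted p = 0.0281), a call lost without any 1 of the 4 libraries (adjusted p of 0.0629 to 0.174). Zic5 gave -0.42 ± 0.27 (adjusted p = 0.256) with the hairpin and 0.10 ± 0.27 (adjusted p = 0.82) with overexpression.

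On day 6 Zic2 was at 20.4 and 19.7 CPM in ES oeCtrl, 40.0 and 36.4 in ES oeYy1, 51.6 and 51.4 in EPS shCtrl, and 15.6 and 17.5 in EPS shYy1. Zic5 was at 9.43 and 9.67 CPM, 13.8 and 12.6 CPM, 19.8 CPM in both, and 6.93 and 6.06 CPM in the same order. Both genes had the same order of the 4 groups, without overlap, from EPS shCtrl down to EPS shYy1. In the libraries labelled EPS shYy1 Zic2 fell by 1.50 ± 0.08 against EPS shCtrl (adjusted p = 2.61e-23) and Zic5 fell by 1.47 ± 0.13 (adjusted p = 1.49e-15). In ES oeYy1 Zic2 was higher than in ES oeCtrl by 0.89 ± 0.09 (adjusted p = 6.43e-13) and Zic5 by 0.43 ± 0.13 (adjusted p = 0.00587). The Zic5 call was lost without ES oeYy1 day 6 replicate 1, where the value was 0.36. The hairpin effect on Zic5 was larger on day 6 than before by 1.05 ± 0.18 on the log2 scale (interaction -1.05, adjusted p = 9.19e-05). For Zic2 the same term was -0.64 ± 0.23 (adjusted p = 0.0332), which ended when only the groups compared were fitted (0.0806) and without 5 of the 8 libraries, left out 1 at a time (adjusted p of 0.0515 to 0.119).

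Within each line both genes fell from the undifferentiated state to day 6. Zic2 fell by 1.25 ± 0.17 in ES oeCtrl (adjusted p = 4.50e-06) and its log2 fold change was -0.65 ± 0.15 in EPS shCtrl (adjusted p = 0.00117, and -0.22 without EPS shCtrl replicate 2). The difference between these responses in Zic2 was 0.60 ± 0.22 (interaction, adjusted p = 0.0359). That call ended with only the groups compared (0.0645) and without 5 of the 8 libraries (adjusted p of 0.0667 to 0.133), and the value was 0.33 without EPS shCtrl replicate 1 and 1.00 without EPS shCtrl replicate 2. Zic5 fell by 1.99 ± 0.13 in ES oeCtrl (adjusted p = 9.66e-12) and fell by 1.46 ± 0.12 in EPS shCtrl (adjusted p = 3.73e-10). The count of Zic2 over that of Zic5 was 1.03 to 2.33 in undifferentiated libraries and 2.04 to 2.90 on day 6, a ratio within libraries that depends on transcript lengths and shows only that the genes changed unequally.

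**Figure D3:**
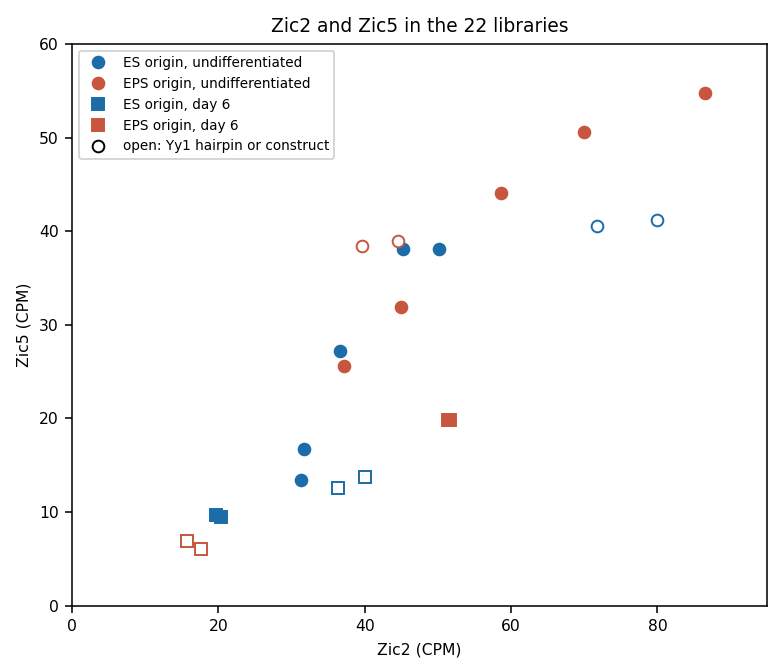
CPM of Zic5 against CPM of Zic2 (linear axes), with a point for each of the 22 libraries: circles undifferentiated, squares day 6, ES origin blue, EPS origin red, open for Yy1 hairpin or overexpression. The day 6 libraries lie at 6.06 to 19.8 CPM of Zic5. Those of ES oeCtrl and EPS shYy1 have less Zic2 than any undifferentiated library. Those of EPS shCtrl and ES oeYy1 lie below most undifferentiated libraries with similar Zic2.

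Grhl2 (chromosome 15, 37232821 to 37363569), a grainyhead factor that maintains epithelial genes and opens their enhancers in the epiblast, rose in all 4 lines on day 6. It was at 3.18, 2.06 and 1.79 CPM in ES, 4.25, 5.05 and 7.04 in EPS, 1.31 and 1.50 in ES oeCtrl, and 2.36 and 2.40 in ES oeYy1. EPS shCtrl had 2.08 and 6.88 CPM and EPS shYy1 10.2 and 5.78 CPM. Day 6 values were 65.6 and 62.3 CPM in ES oeCtrl, 48.8 and 49.2 in ES oeYy1, 65.5 and 61.4 in EPS shCtrl, and 78.9 and 73.5 in EPS shYy1. Every day 6 library was far above every undifferentiated one. The rise was 5.50 ± 0.42 in ES oeCtrl, 4.29 ± 0.40 in ES oeYy1, 3.66 ± 0.34 in EPS shCtrl and 3.33 ± 0.32 in EPS shYy1, with adjusted p from 5.87e-07 to 3.81e-06. The value in EPS shCtrl was 3.06 or 4.89 with 1 of its 2 undifferentiated libraries left out. EPS shCtrl responded less than ES oeCtrl by -1.85 ± 0.64 (interaction, adjusted p = 0.0359), a call that ended without a filter on low counts (0.102), with only the groups compared (0.0616) and without 7 of the 8 libraries, among them EPS shCtrl replicate 2 (-0.63, adjusted p = 0.197). A long noncoding gene, Gm16136, overlaps the start of Grhl2 and reached up to 10.1 CPM, and reads of the overlap cannot be assigned without strand.

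On day 6 Grhl2 rose by 0.40 ± 0.06 in the libraries labelled EPS shYy1 (adjusted p = 6.68e-08) and fell by 0.43 ± 0.07 with overexpression (adjusted p = 2.81e-07), the reverse of Zic2. Before differentiation the hairpin gave 0.74 ± 0.43 (adjusted p = 0.216) and 1.91 with an adjusted p of 0.00785 without EPS shCtrl replicate 2. Overexpression gave 0.75 ± 0.53 (adjusted p = 0.305). EPS exceeded ES by 1.27 ± 0.37 (adjusted p = 0.0169, but 0.0586 without ES replicate 2, 0.0625 without ES replicate 3 and 0.0501 without EPS replicate 3).

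**Figure D4:**
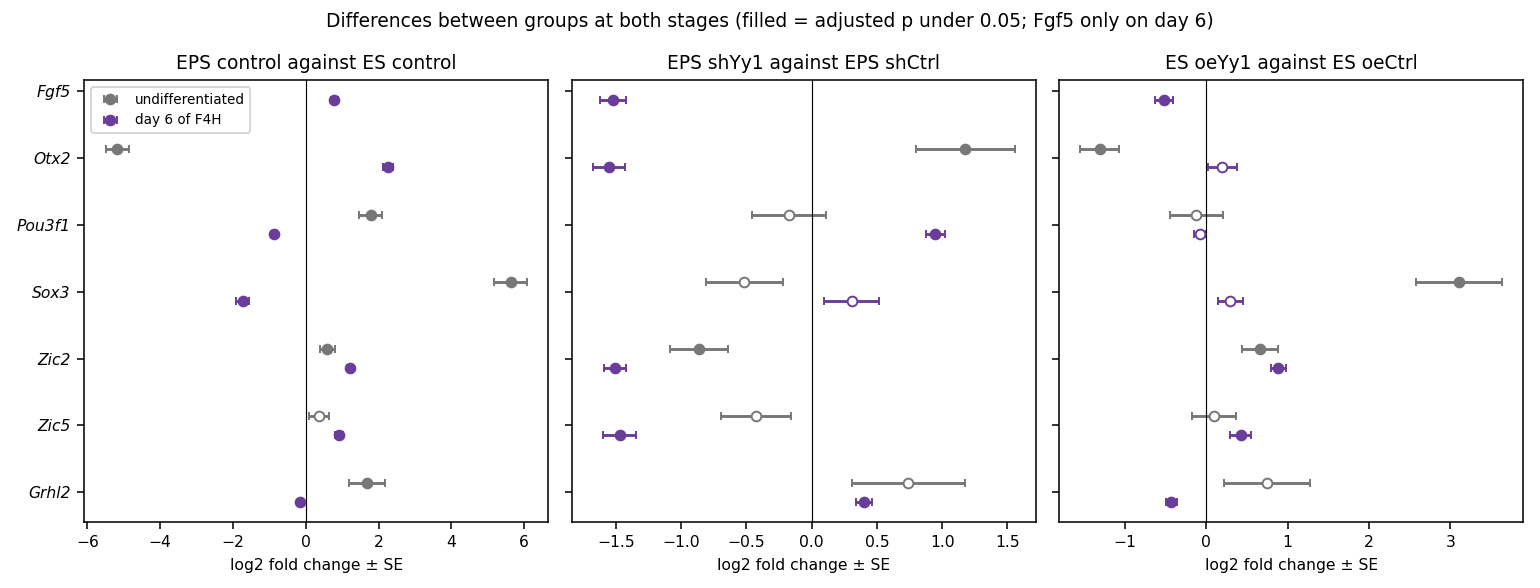
Log2 fold change ± SE (horizontal axis) of the 7 genes (vertical axis) between the control lines, with the hairpin and with overexpression, in grey before and in purple on day 6, filled where the adjusted p is below 0.05; Fgf5 is shown for day 6 only. Zic2 is lower with the hairpin and higher with overexpression at both stages, while Otx2 changes sign between the stages of the hairpin comparison.

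Counted by comparison, 5 of the 7 genes were called higher and 1 (Otx2) lower in EPS than in ES, where 13.8% and 16.9% of 16440 genes tested were called in these directions and 30.6% in all. Leaving out any 1 of the 6 libraries ended the call of Pou3f1, Grhl2 or both, so that 4 to 5 members were then called. Their median log2 difference was 0.97, against -0.00 over all genes. Among the 12 fibroblast genes, EPS against ES called 10 lower and none higher. The hairpin before differentiation called 1 higher and 1 lower, against 15.1% and 13.3% of all genes (28.5% in all), a share of the 7 genes close to that background. Overexpression called 2 higher and 1 lower, against 14.8% and 17.1% (32% in all). EPS shCtrl against ES oeCtrl called 4 higher and 1 lower, against 19.7% and 20.7% (40.4% in all). Of these, Zic2 (0.23) and Grhl2 (0.49) lost their calls without EPS shCtrl replicate 2, and both also lost them without either ES oeCtrl library. The control construct lines against cells without a construct called 2 higher and 1 lower in EPS, against 28.9% and 27.4% (56.4% in all), and 3 higher and none lower in ES, against 25.5% and 25.1% (50.6% in all). Without EPS replicate 3 or EPS shCtrl replicate 2 the count in EPS was 5.

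On day 6 the hairpin called 2 of the 7 higher and 4 lower, against 30.9% and 30.4% of 15927 genes (61.3% in all), with a median of -1.47 against -0.01 over all genes. Day 6 overexpression called 2 higher and 2 lower, against 20.3% and 21.6% (41.9% in all), and day 6 EPS shCtrl against ES oeCtrl 4 higher and 3 lower, against 31.6% and 32.4% (64.1% in all). Among these 3, Grhl2 (-0.16 ± 0.06, adjusted p = 0.0198) lost its call with DESeq2 (0.0598) and without ES oeCtrl day 6 replicate 1 (0.181) or EPS shCtrl day 6 replicate 2 (0.180). From undifferentiated to day 6 all 7 were called in each line, always 4 higher and 3 lower. Over 17207 genes the shares were 37.5% and 36.6% in EPS shCtrl (74.1% in all), 37.9% and 37.4% in EPS shYy1 (75.4%), 37.1% and 35.9% in ES oeCtrl (73%), and 35.7% and 36.9% in ES oeYy1 (72.7%). Most genes thus changed over the 6 days, and a call alone does not set the 7 apart. The interaction with stage called 1 positive and 3 negative for the hairpin, against 21.4% and 20.1% (41.5% in all), and 1 and 1 for overexpression, against 17.7% and 19.9% (37.6% in all). The interaction with origin called 3 positive and 3 negative, against 22.8% and 25.9% (48.7% in all), and 4 to 6 in all without 1 library, since Zic2 and Grhl2 lost their calls in 5 and 7 of the 8 cases. Comparisons that share a control group are not independent of each other.

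In EPS against ES 13.8% of all genes were called higher and 16.9% lower. Among 18 further genes of the formative and primed state, 8 were higher and 3 lower in EPS than in ES (median 0.54). They included the DNA methyltransferase genes Dnmt3a (9.64 ± 1.2 CPM in ES and 32.7 ± 8.9 in EPS, SD, n = 3, log2 fold change 1.82) and Dnmt3b (31.2 ± 3.1 and 144 ± 54 CPM), and Sox11. The hairpin before differentiation called 15.1% of all genes higher and 13.3% lower. With it 3 of the 18 were higher and 8 lower (median -0.51), among them the FGF-responsive factors Etv4 (309 ± 13 CPM in EPS shCtrl and 120 ± 1.2 in EPS shYy1, n = 2) and Etv5, and Dnmt3a. Etv4 and Etv5 are also counted among the ERK target genes below, so these lists are not independent. Markers of other cell types moved in the same comparison: 7 of 10 primitive endoderm genes were lower and none higher (median -1.71, summed level 70.0 to 78.8 CPM in EPS shCtrl and 25.8 to 28.2 in EPS shYy1), and 5 of 12 fibroblast genes were higher and none lower (17.9 to 31.8 and 41.9 to 51.3 CPM). Primitive endoderm genes were also higher in EPS shCtrl than in EPS (9 of 10, none lower), where 28.9% of all genes were called higher. Their part in these results was not tested. Overexpression before differentiation called 14.8% of all genes higher and 17.1% lower. With it 9 of the 18 were higher and 3 lower (median 0.56), with Foxd3 and Cdh2 higher and the Nodal inhibitor Lefty2 lower. On day 6, 13 of 18 were lower and 4 higher with the hairpin (median -0.30), among them Lef1 (50.7 ± 0.69 CPM in EPS shCtrl and 17.6 ± 1.2 in EPS shYy1, n = 2) and Lefty2, and 10 were higher and 2 lower with overexpression (median 0.18), with Lef1, Dnmt3a and Tead2 among the higher ones. Of all genes on day 6, 30.9% were called higher and 30.4% lower with the hairpin, and 20.3% and 21.6% with overexpression.

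All 16 naive pluripotency genes fell to day 6 in each of the 4 lines, with medians from -6.41 to -4.86, and so did all 6 core pluripotency genes. Nanog, for example, was at 981 ± 24 CPM in ES oeCtrl and 34.0 ± 0.03 on day 6. From undifferentiated to day 6, 35.7% to 37.9% of all genes were called higher in the 4 lines and 35.9% to 37.4% lower. Of 12 mesendoderm genes, 12 were called higher in EPS shCtrl, 10 higher and 1 lower in EPS shYy1, 11 higher and 1 lower in ES oeCtrl, and 11 higher and none lower in ES oeYy1. Their summed level on day 6 was 826 to 846 CPM in EPS shCtrl, 384 to 395 in EPS shYy1, 539 to 550 in ES oeCtrl and 1002 to 1075 in ES oeYy1. The 16 neuroectoderm genes summed on day 6 to 135 to 140 CPM in EPS shCtrl and 346 to 358 in EPS shYy1. In ES oeCtrl they summed to 437 to 442 CPM and in ES oeYy1 to 335 to 339. A sum gives most weight to the most abundant genes. Of the 12 tested from undifferentiated to day 6, 3 were called higher and 4 lower in EPS shCtrl, and 2 and 7 in EPS shYy1. In ES oeCtrl 3 were called higher and 4 lower, and in ES oeYy1 3 and 7. The medians in the 4 lines ran from -1.12 to -0.17. The part of neural cells in the levels of Pou3f1, Sox3 and the Zic genes was not tested. The hairpin on day 6 called 30.4% of all genes lower and 30.9% higher. With it, 10 of 12 mesendoderm genes were lower and 2 higher, led by Fgf8, Lhx1 and Mesp1, beside 11 of 15 epithelial genes higher and 1 lower, led by Cdh1, Krt8 and Krt18. With overexpression on day 6, 8 mesendoderm genes were higher and 1 lower, and 14 of 15 epithelial genes were lower. The shares over all genes in that comparison were 20.3% higher and 21.6% lower. Grhl2 had the direction of most epithelial genes in these day 6 comparisons but not throughout. EPS shCtrl against ES oeCtrl called 8 epithelial genes lower and 1 higher before differentiation, where Grhl2 was called higher. Of all genes, 20.7% were called lower and 19.7% higher there. ERK target genes were higher in EPS than in ES (11 of 14, 1 lower, median 0.98) and lower with the hairpin before differentiation (9 of 14, 1 higher, median -0.98). EPS and ES cells were kept in different media, and the part of the medium was not tested. Of all genes, 13.8% were called higher and 16.9% lower in EPS against ES. With the hairpin before differentiation these shares were 15.1% and 13.3%.

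Family relatives were checked for the same comparisons. Sox2, a SOXB1 factor counted here among the core pluripotency genes, was at 371 ± 33 CPM in ES oeCtrl and 37.1 ± 0.42 on day 6, a fall, while Sox3 rose in the same line. Sox2 also fell in ES oeYy1 (log2 fold change -3.74), where Sox3 rose. In EPS shCtrl (-4.78) and EPS shYy1 (-5.35) it fell as Sox3 did. Sox1 fell to day 6 in each line (-5.98 to -4.63). Grhl3 rose by 1.81 and fell by 0.98 on day 6 with the hairpin and with overexpression, and Grhl1 changed in the same directions. From undifferentiated to day 6, however, Grhl1 fell where Grhl2 rose (-2.86 in EPS shCtrl, -2.08 in EPS shYy1, -1.30 in ES oeCtrl, -0.87 in ES oeYy1). Grhl3 fell in EPS shCtrl (-0.33), ES oeCtrl (-0.49) and ES oeYy1 (-1.15) and rose in EPS shYy1 (0.45). Otx1 was lower by 1.31 with the hairpin on day 6 (adjusted p = 0.0002), as Otx2 was. Both also had the same called direction in EPS against ES (Otx1 -1.55) and in ES oeCtrl against ES (1.10). So they had in EPS shCtrl against ES oeCtrl before differentiation (-1.39) and on day 6 (2.45). Overexpression before differentiation (-1.67) and the change to day 6 in EPS shCtrl (1.09) and ES oeCtrl (-2.73) were alike too. Otx1 was not called with the hairpin before differentiation or for the change to day 6 in EPS shYy1 and ES oeYy1. In EPS shCtrl against EPS Otx1 was higher (log2 fold change 1.26), where Otx2 was lower. Otx1 was also called higher with day 6 overexpression (1.21), where Otx2 was not called.

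As a description over the means of the 10 groups, with no test, the expression patterns most like each member among genes of at least 5 CPM on average were those of Pdlim2 for Fgf5 (Pearson r = 0.987), Rab8b for Otx2 (0.923), Myh10 for Pou3f1 (0.990), Celf4 for Sox3 (0.927), Ska1 for Zic2 (0.978), Zcwpw1 for Zic5 (0.992) and Cnksr1 for Grhl2 (0.982). These points share the large difference between day 6 and undifferentiated groups. Among the members, Zic2 and Zic5 had r = 0.902, Fgf5 and Grhl2 0.944, and Otx2 and Sox3 -0.751. Ordered by mean level, Otx2 ran from ES oeCtrl (28.7 ± 4.1 CPM) to EPS shCtrl (0.796 ± 0.21), 36.0-fold, and Sox3 from day 6 ES oeYy1 (11.5 ± 0.95) to ES oeCtrl (0.203 ± 0.10), 56.4-fold, whereas Zic2 spanned 4.57-fold and Zic5 7.62-fold. Pou3f1 spanned 56.0-fold, from day 6 EPS shYy1 to ES, and Grhl2 54.2-fold, from day 6 EPS shYy1 to ES oeCtrl. Neighbouring groups in these orders often overlapped, as did the day 6 EPS shYy1, ES oeCtrl and ES oeYy1 groups for Pou3f1.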

How the data were processed

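Per the labels, RNA was extracted with TRIzol and sequenced for 22 libraries. The authors deposited whole-number read counts per gene symbol, not normalized. Per the submitters' processing notes, CASAVA, Bowtie2 2.3.2 and the builds mm10 and GRCm38.p6 were used; the counting program and its strand setting are not given in the sources used here. Lines that name no gene (no feature 5.61 to 8.62%, ambiguous 3.70 to 5.32%, not unique 5.45 to 6.66% of all lines' counts) were left out of library sizes. Sharing of reads with near-identical genes was not resolved.

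Counts were tested with edgeR 4.0.16 (R 4.3.3, limma 3.58.1): TMM factors, filterByExpr, robust quasi-likelihood F-test, with Benjamini-Hochberg adjustment over all genes tested and a call at an adjusted p below 0.05. Separate fits covered the 14 undifferentiated libraries, the 8 day 6 libraries and the 16 libraries of the 4 lines with constructs; each used one estimate of spread for its groups. The SE is the log2 fold change divided by the square root of F. Groups came from the titles. The script was tested on simulated counts. Alternatives were RLE factors, DESeq2 1.42.0, no filter, only the groups compared, X- and Y-linked genes left out, a replicate block, and each library left out in turn. Deviations of same-numbered EPS and ES libraries from their group means were weakly correlated (r = 0.124, 0.17 and 0.372), which does not establish pairing. The block gives the same replicate effect to all groups of a fit, so it does not test pairing of EPS with ES. The values given are from the fit without the block, and the closing section gives the fit with it.

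Named were the 7 genes in every comparison, up to 3 called genes of smallest p per list, family relatives, overlapping genes and the genes of most similar pattern. The members and lists were chosen with earlier results of these data known. Promoter sequences and positions are from RefSeq (GRCm38.p6). The other assays were not analysed here. Of the genes that this rule takes in, 1 is not reported here.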

Additional observations from a re-analysis of the deposited data

Results flagged for a closer look

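Of the 7 genes, 6 had an effect of one contrast that differed between stages or lines by an interaction term in edgeR, and each is given here as a difference of 2 log2 fold changes with no explanation. The hairpin effect on day 6 minus that before differentiation was -2.72 for Otx2, 1.12 for Pou3f1, -0.64 for Zic2, a call that ended without 5 of 8 libraries, and -1.05 for Zic5. The Yy1 transcript was lowered by the hairpin in undifferentiated cells and was not detectably lowered on day 6. Y-linked sums of the hairpin groups differed at both stages, so an effect of the hairpin and a difference between the lines cannot be told apart.

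The overexpression effect on day 6 minus that before differentiation was 1.47 for Otx2 and -2.85 for Sox3, where the undifferentiated Sox3 control libraries lay at or near 3 counts. The response to F4H in EPS shCtrl minus that in ES oeCtrl was 7.42 for Otx2, -7.37 for Sox3, -2.66 for Pou3f1, -1.85 for Grhl2, 0.60 for Zic2 and 0.53 for Zic5. The calls of Zic2 and Grhl2 in this contrast ended without 5 and 7 of the 8 libraries, left out 1 at a time, and Zic2 ran from 0.33 to 1.00. For Otx2 and Sox3 the lines moved in opposite directions, and for the other 4 genes they moved the same way by different amounts. Cell origin, the medium before differentiation and the kind of control construct cannot be told apart in this contrast.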

How the results depend on the processing

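Of 106 results for single genes, 79 were called. Across 1137 alternative values, 1060 kept direction and side of the threshold, 51 lost a call, 18 gained one and 8 changed sign. The sign changes all came from leaving out 1 library and touched no called result, and 66 called results kept their call in every alternative run. Without 1 library, the hairpin value of Pou3f1 ranged from -0.54 to 0.31, its overexpression value from -0.34 to 0.14, and its stage difference under overexpression from -0.25 to 0.22. Grhl2 ranged from -1.56 to 0.26 for EPS shCtrl against EPS and from -1.55 to 0.28 for the stage difference of the hairpin, and Otx2 from -0.030 to 0.40 for day 6 overexpression. The cause was not tested.

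Counts of called members were 6 for EPS against ES and 4 to 5 without 1 library, 3 for overexpression before differentiation and 2 without any 1 library, and 6 for the difference by origin and 4 to 6 without 1 library. They were 2 for the hairpin before differentiation, 1 with only the groups compared, and 1 to 3 without 1 library. EPS shCtrl against ES oeCtrl gave 5, and 3 to 5 without 1 library. EPS shCtrl against EPS gave 3, and 3 to 5 without 1 library. The stage difference under overexpression gave 2, and 1 without X- and Y-linked genes, since Sox3 is then left out. Over all genes, the hairpin called 4682 before differentiation and 2571 to 4853 without 1 library. Overexpression called 5255, 3065 to 3614 without 1 library and 8149 with only the groups compared.

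With a replicate block EPS shCtrl against EPS gave 5 called members. The block gained calls for Zic5 with the hairpin (adjusted p = 0.0206) and in EPS shCtrl against ES oeCtrl (0.037), and for Zic2 in ES oeCtrl against ES (0.00268), and lost that of Grhl2 for origin (0.0554). It changed no member's call in EPS against ES, where the genes called went from 5033 to 6392. In the other comparisons the deviations of same-numbered libraries had r from -0.0808 to 0.0567. Where 1 library is left in a group, its spread is assumed to be that of the other groups. Depth limits Fgf5 before differentiation, where no fold is given among the lines with constructs.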
